A study of Mus musculus with 4 samples.

Results

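The kinesin superfamily comprises the motor proteins that walk along or take apart microtubules, and its mRNAs were followed here in pachytene spermatocytes with and without a knockdown of Hsf5. The family was chosen with earlier results of these data known. Its members were chosen by gene symbol alone, as every gene whose name is Kif or Kifc followed by its number. They are 44 of the 50763 genes in the table, of which 43 had a count and 42 passed the filter on low counts and could be tested. By textbook role, 15 members work on the mitotic and meiotic spindle, 25 carry cargo or serve cilia and the sperm flagellum, 3 belong to neither side, and 1, the pseudogene Kifc5c-ps, was given no role.

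Kinesins use the energy of ATP, most of them to step toward the plus end of a microtubule, whereas members of the kinesin-14 family step the other way and those of kinesin-13 shorten microtubules from their ends. On a spindle they separate the poles, hold and position chromosomes and build the midzone where the cell divides. In developing male germ cells other members carry vesicles and RNA, bring material along the growing flagellum and the manchette that shapes the sperm head, or sit in the beating axoneme.

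There were 4 libraries of polyadenylated RNA from pachytene spermatocytes of mouse testis, 2 of WT mice and 2 of the genotype Hsf5 knockdown, with 33287428 to 42479164 counts each. Hsf5 is a germ cell member of the heat shock factor family. The labels used here do not say how it was knocked down, nor the strain or age of the mice. The replicates are called biological, but nothing says which animals they came from, so the p-values speak only of the spread among these 4 libraries, which may be technical.

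The target gene Hsf5 stood at 586 and 449 CPM in WT replicates 1 and 2 and at 287 and 238 CPM in knockdown replicates 1 and 2, where CPM (a count set against the size of its library) was taken after scaling the libraries by the TMM method. The groups differed in far more than kinesins: 60.9% of the 23594 genes tested passed an adjusted p of 0.05, with 27.4% higher and 33.5% lower in the knockdown. Of 12 genes listed as pachytene markers 10 were lower, Sycp1, of the synaptonemal complex, was higher and Sycp3 did not pass, and their summed level was 12626 and 11965 CPM in WT against 3205 and 2525 CPM in the knockdown. All 10 spermatid markers fell, and their sum was 3796 and 1880 CPM in WT against 20.2 and 11.5 CPM. Markers of other cells rose, with all 12 Sertoli markers higher (246 and 539 CPM in WT, 4006 and 4745 CPM in the knockdown), all 7 Leydig markers higher (111 and 747 CPM against 1325 and 2644 CPM) and 9 of 12 spermatogonial markers higher (184 and 175 CPM against 885 and 793 CPM). None of these Sertoli, Leydig or spermatogonial markers was at 0 in either group, and in bulk RNA fewer cells of a type and less RNA per cell cannot be told apart. The part that these markers play in the kinesin results below was not tested.

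Among the 42 kinesins tested, 10 were higher and 16 lower in the knockdown libraries (edgeR quasi-likelihood test, adjusted p below 0.05). Over all tested genes the shares are 27.4% higher and 33.5% lower, so the family as a whole was called about as often as any gene. The counts by role were as follows, and differences between roles were not tested. Of the 11 kinesins of cilia and flagella 7 fell and 1 rose, whereas of the 13 cargo transporters tested 6 rose and 2 fell. Of the 15 spindle kinesins 6 fell, 2 rose and 7 did not pass. The median log2 fold change was -1.91 for the cilium and flagellum group, 0.91 for the cargo group and -0.49 for the spindle group, against -0.12 for all tested genes. Set against the spindle group as 1 list, the transport and flagellar kinesins together had 7 higher, 9 lower and a median of -0.03, which hides the opposite directions inside it and turned positive when WT replicate 2 (0.21) or knockdown replicate 1 (0.24) was left out. Without WT replicate 1, 10 kinesins fell instead of 16. These medians shift with the scaling: that of all genes was 0.31 with library totals only and -0.67 when genes of the meiotic chromosome axis (synaptonemal complex and cohesin) set the scale, called axis-gene scaling below. Under those 2 scalings the spindle median was -0.048 and -1.01 and the transport and flagellar median 0.41 and -0.53.

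**Figure D1:**
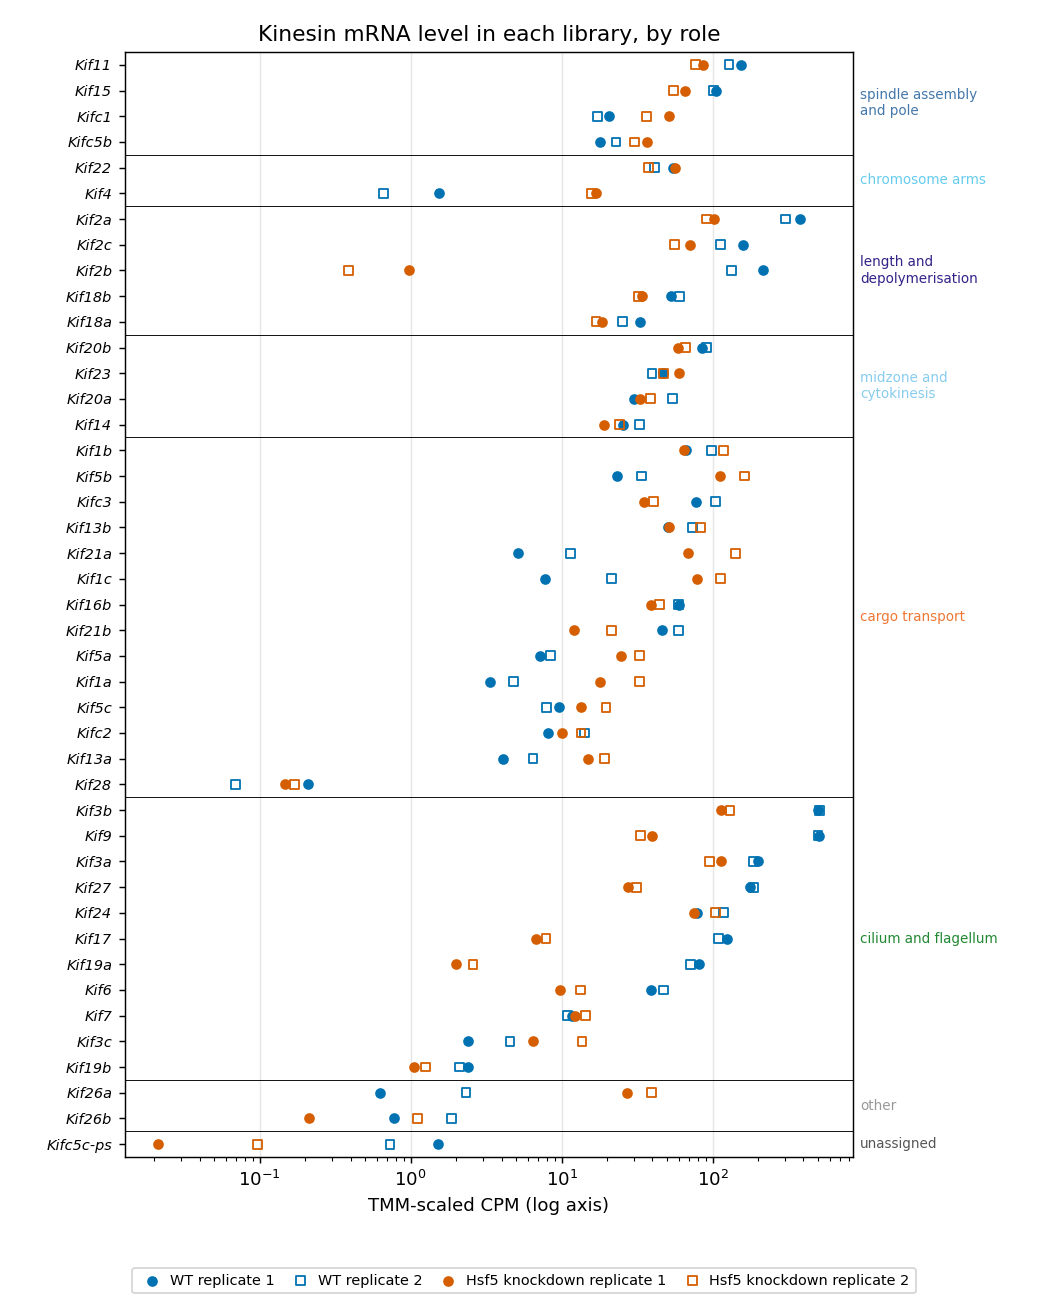
Level of the 43 kinesins with a count in each of the 4 libraries, as TMM-scaled CPM on a log axis, grouped by role and ordered by mean level within a role (blue for WT, orange for knockdown, filled circles for replicate 1 and open squares for replicate 2). Kif9 and Kif3b lie between 499.7 and 513 CPM in WT and between 33.5 and 131 CPM in the knockdown, while Kif21a, Kif5b and Kif1c lie to the right in the knockdown.

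Of the kinesins of cilia and flagella 7 of 11 fell, where 33.5% of all tested genes did. Kif9, a motor of the central apparatus of the sperm axoneme, had 506 and 499.7 CPM in WT and 39.7 and 33.5 CPM in the knockdown, a 13.7-fold drop (log2 fold change -3.78, SE 0.32; edgeR, adjusted p = 2.5e-05). Kif6, its relative in the kinesin-9 family and a protein of motile cilia, went from 39.1 and 47.5 CPM to 9.69 and 13.3 CPM (log2 fold change -1.91, SE 0.36; edgeR, adjusted p = 0.00173). For both genes each knockdown library lay below each WT library.

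Kif17, which overlaps Sh2d5 on the same strand, is the motor that in spermatids moves the CREM coactivator Fhl5 between nucleus and cytoplasm. It stood at 124 and 110.02 CPM in WT and at 6.79 and 7.89 CPM in the knockdown (log2 fold change -3.99, SE 0.33; edgeR, adjusted p = 2.2e-05). Kif19a, which keeps cilia from growing too long by taking apart microtubule ends, fell further, from 80.8 and 71.8 CPM to 1.99 and 2.59 CPM, or 33.3-fold (log2 fold change -5.06, SE 0.38; edgeR, adjusted p = 1.5e-05). Kif27, linked to the building of motile cilia, went from 177 and 187 CPM to 27.4 and 31.5 CPM (log2 fold change -2.63, SE 0.29; edgeR, adjusted p = 0.00011). The replicates of each group lay close together in these 3 genes and the groups did not overlap. Of the 7 falls, 5 were of 4-fold or more, as were 6094 of the 7902 falls over all tested genes. Falls of this size were thus common, and those 6094 are 25.8% of all tested genes.

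The members of this group that did not pass were Kif24, a centriolar relative of the depolymerases that holds back cilium formation (78.7 and 119 CPM in WT, 75.4 and 104 CPM in the knockdown), Kif7, of Hedgehog signalling in primary cilia and antisense to Ticrr, which rose (11.7 and 10.9 CPM, 12.2 and 14.4 CPM), and the weakly expressed Kif19b (2.38 and 2.12 CPM, 1.06 and 1.26 CPM). Their log2 fold changes were -0.14 (SE 0.32), 0.24 (SE 0.39) and -0.96 (SE 0.60). Without 1 of the libraries, 6 or 7 of the group fell and 0 or 1 rose (edgeR).

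**Figure D2:**
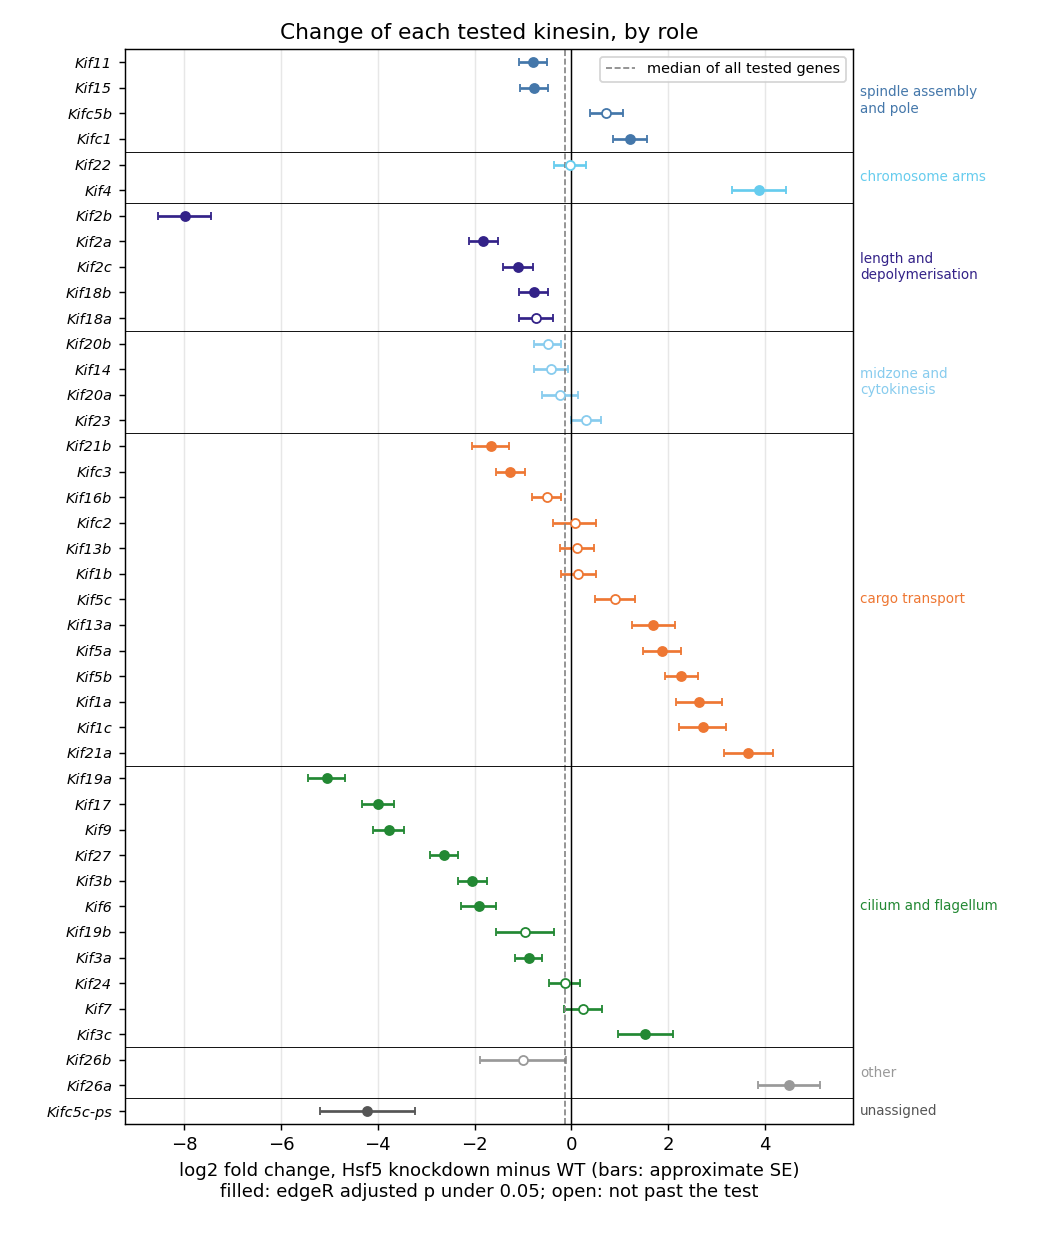
Log2 fold change, knockdown minus WT, of the 42 tested kinesins with approximate standard errors, grouped and coloured by role, with filled points for an adjusted p below 0.05 (edgeR) and open points for the rest, and a dashed line at the median of all tested genes (-0.12). The cilium and flagellum group lies mostly left of 0, the cargo group mostly right, and Kif2b stands alone near -7.99.

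The subunits of the kinesin-2 motor moved unequally. This motor drives transport toward the tip of cilia and flagella as a trimer in which KIF3A pairs with KIF3B or KIF3C and binds the adaptor KAP, encoded by Kifap3. Kif3b fell from 501 and 513 CPM to 114 and 131 CPM (log2 fold change -2.05, SE 0.30; edgeR, adjusted p = 0.00045). Kif3a fell less, from 199.98 and 186 CPM to 114 and 95.0 CPM (-0.88, SE 0.28; edgeR, adjusted p = 0.0224), a call lost with library totals only (adjusted p = 0.153), against a fold of 1.5 (0.1), without WT replicate 1 (0.165), without WT replicate 2 (0.126) and without knockdown replicate 2 (0.0514). Kifap3 went from 166 and 134 CPM to 87.4 and 69.1 CPM (-0.94, SE 0.30; edgeR, adjusted p = 0.0209). Kif3c rose from 2.41 and 4.55 CPM to 6.47 and 13.7 CPM (1.53, SE 0.56; edgeR, adjusted p = 0.0391), a call lost without WT replicate 1 (adjusted p = 0.125), without knockdown replicate 2 (0.278), with DESeq2 size factors (0.0515), against a fold of 1.5 (0.0694) and under axis-gene scaling (0.267). Kif3c overlaps the antisense genes 1110002L01Rik and Gm48512, and the counting is not known to use strand. The first had 12.1 and 13.4 CPM in WT and 5.25 and 8.64 CPM in the knockdown. It did not pass (-0.88, SE 0.45; edgeR, adjusted p = 0.115), and Gm48512 was not among the genes counted. A ratio of 2 genes inside a library does not depend on the scaling: per kilobase of transcript, the level of Kif3b over that of Kif3a was 1.41 and 1.55 in WT and 0.56 and 0.771 in the knockdown. On this scale Kif3b was above Kif3a in both WT libraries and below it in both knockdown libraries. In raw counts the ratio was 2.50 and 2.76 in WT and 0.998 and 1.37 in the knockdown. The ratio thus fell either way, but which gene was ahead in the knockdown depends on the transcript lengths used. Kif3c remained a small fraction, with a per-kilobase ratio to Kif3b of 0.00399 and 0.00736 in WT and 0.0471 and 0.0868 in the knockdown.

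Promoter windows were read from RefSeq for GRCm38.p6, from 250 bases before to 50 after a start, and were found for 33 of the 44 kinesins. A gene was counted if any of its windows held a motif, whereas the shares over all promoters are per window. GTTGCC, a core of the sites of the RFX factors that drive ciliary genes, was searched on both strands. It was present for 5 of the 9 ciliary and flagellar kinesins with a window (Kif3a, Kif3c, Kif9, Kif17 and Kif24). It was also present for 2 of 7 cargo kinesins, for 3 of 14 spindle kinesins and in 12.5% of all 32851 promoter windows. Over the family it was present for 10 of 33, with 4 of 12 that fell, 2 of 8 that rose and 4 of 12 that did not pass. Its reverse complement can share bases with AACNG, the MYB core, which was in 80.3% of all windows and so separates little. The bases just upstream of the annotated start of the falling genes Kif17 and Kif3a are shown because both carry the match, in capitals. The ends of these windows did not match the beginning of a reference transcript, so the starts are uncertain. That of Kif17 lay inside a transcript, so its window may not be a promoter. Kif9 and Kif2a also fell and held the match, in windows whose ends did match such a beginning, and are not shown. A match describes the letters only, and among the 5 ciliary and flagellar genes with it 3 fell, Kif3c rose and Kif24 did not pass.
Kif17 (chr4:138262131-138262250, plus strand): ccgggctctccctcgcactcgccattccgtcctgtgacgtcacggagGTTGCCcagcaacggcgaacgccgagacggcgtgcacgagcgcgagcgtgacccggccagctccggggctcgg
Kif3a (chr11:53567249-53567368, plus strand): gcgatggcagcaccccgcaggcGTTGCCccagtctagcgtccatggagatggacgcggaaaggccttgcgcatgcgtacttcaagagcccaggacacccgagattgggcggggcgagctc

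On the spindle side, 4 of the 5 microtubule depolymerases and length regulators fell, where 33.5% of all tested genes did, and 2 did with library totals only or without WT replicate 1. Kif2b, a kinesin-13 motor that loosens faulty attachments of microtubules to kinetochores, had the largest fall of the family, from 217 and 134 CPM in WT to 0.973 and 0.387 CPM in the knockdown, where 46 and 16 reads were left. That is a 255-fold drop (log2 fold change -7.99, SE 0.55; edgeR, adjusted p = 9.95e-06). Kif2a, of the spindle poles and also of interphase cells, had 378 and 306 CPM in WT against 103 and 90.9 CPM (-1.82, SE 0.30; edgeR, adjusted p = 0.00083). Kif2c, of the centromeres, went from 159 and 114 CPM to 71.2 and 56.003 CPM (-1.10, SE 0.31; edgeR, adjusted p = 0.0123), a call lost with library totals only (adjusted p = 0.07) and without WT replicate 1 (0.148). In WT the per-kilobase level of Kif2b was 1.36 and 1.04 times that of Kif2a, and in the knockdown 0.0224 and 0.0101 times. The ratio of Kif2c to Kif2a rose meanwhile from 0.785 and 0.693 to 1.29 and 1.15, so the 3 paralogs fell by unequal amounts. Summed spermatid markers, like Kif2b, were higher in WT replicate 1 (3796 CPM) than in WT replicate 2 (1880 CPM). Log2 ratios of WT replicate 2 to replicate 1 were -0.69 for Kif2b, -0.48 for Kif2c, -0.38 for Kif18a and -0.30 for Kif2a. The split was thus not particular to Kif2b, though Kif18b went the other way (0.19). Summed pachytene markers were also higher in WT replicate 1, whereas summed Sertoli and Leydig markers were lower there. The part of these markers in the fall of Kif2b was not tested.

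Kif18b and Kif18a, kinesin-8 motors that act at the plus ends of microtubules, were both lower in each knockdown library. Kif18b had 52.9 and 60.5 CPM in WT against 34.0 and 32.3 CPM, and Kif18a had 33.3 and 25.4 CPM against 18.6 and 16.9 CPM. Kif18b was at the edge of the threshold (-0.78, SE 0.30; edgeR, adjusted p = 0.0499), and Kif18a did not pass (-0.73, SE 0.35; edgeR, adjusted p = 0.101), though it did with the replicate number as a block (0.0425). Kif11, the kinesin-5 motor that pushes spindle poles apart, and Kif15, which can stand in for it, lay close to them with log2 fold changes of -0.79 (SE 0.28; edgeR, adjusted p = 0.0359) and -0.77 (SE 0.28; edgeR, adjusted p = 0.0383). Kif11 had 154 and 129 CPM in WT and 86.3 and 77.2 CPM in the knockdown. Kif15 had 105 and 101 CPM in WT and 65.6 and 54.9 CPM in the knockdown. The calls of Kif11, Kif15 and Kif18b were each lost when any 1 library was left out (edgeR, adjusted p from 0.0614 to 0.276), with library totals only, without the low-count filter and against a fold of 1.5, so the 6 spindle kinesins that fell became 2 or 3 without a library. In every alternative the log2 fold change of these 3 genes stayed negative.

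Of the 2 chromokinesins and the 2 spindle kinesin-14 motors, Kif4 and Kifc1 rose. Kif4, a chromokinesin encoded on the X chromosome, rose from 1.55 and 0.66 CPM to 16.9 and 15.9 CPM, or 14.7-fold (3.88, SE 0.56; edgeR, adjusted p = 0.00042). Its antisense neighbour Pdzd11, also with overlapping exons, rose from 0.714 and 1.74 CPM to 12.5 and 12.6 CPM (3.36, SE 0.58), and without strand their reads cannot be told apart. Kif22, the other chromokinesin, overlapped between groups (54.5 and 41.5 CPM, 56.8 and 37.7 CPM; -0.02, SE 0.34). Kifc1, which focuses spindle poles and in spermatids serves the acrosome and nucleus, rose from 20.5 and 17.4 CPM to 51.5 and 36.7 CPM (1.22, SE 0.35; edgeR, adjusted p = 0.0132), a call lost without WT replicate 2 (adjusted p = 0.0631), without knockdown replicate 1 (0.0779) and under axis-gene scaling (0.341). Its near copy Kifc5b went from 17.9 and 22.9 CPM to 37.0 and 30.4 CPM without passing (0.72, SE 0.35; edgeR, adjusted p = 0.0971), though it passed with library totals only (0.0158) and with the replicate block (0.0392). Reads of these copies and of the pseudogene Kifc5c-ps may be shared among them, so their separate counts are uncertain.

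None of the 4 midzone and cytokinesis kinesins passed (edgeR, 0 also at an unadjusted p below 0.05, and 0 with DESeq2), where 60.9% of all tested genes did. Kif20b had 84.5 and 91.03 CPM in WT and 58.8 and 66.2 CPM in the knockdown (-0.49, SE 0.28), and Kif23, which bundles midzone microtubules, had 47.0 and 39.8 CPM against 59.6 and 47.2 CPM (0.30, SE 0.31). Kif20a (-0.23, SE 0.37) and Kif14 (-0.42, SE 0.35) had log2 fold changes of similar size. Summed over the midzone group the level was 187 and 218 CPM in WT and 170.3 and 176 CPM in the knockdown.

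Most spindle kinesins with a window held the same motif near the annotated start, whether or not they changed. TTTGAA, the cell cycle homology region through which genes of the G2 and M phases are repressed and switched on, was searched on both strands. It was present for 11 of the 14 spindle kinesins with a window (not for Kif2a, Kif2b or Kif18a). It was also present for 2 of 16 transport and flagellar kinesins (Kif1a and Kif27) and in 17.9% of all windows. Another window of Kif1a lacked it. The ends of the matching windows of Kif1a and Kif27 lay inside a reference transcript, not at its beginning, so those may not be promoters. The same holds for Kif4, Kif14, Kif15 and Kif22. The window ends of Kif20b and Kif23 were found in no reference transcript, so those starts are uncertain too. Of the 11 spindle kinesins with a match, 4 fell (Kif11, Kif15, Kif2c and Kif18b), 2 rose (Kif4 and Kifc1) and 5 did not pass. The variant TTCGAA was found for Kif24 alone, in 1.56% of all windows. The upstream bases of the falling genes Kif11, Kif15 and Kif2c are printed with the match in capitals, read as its reverse complement TTCAAA. In the first 2 the match lies close before the annotated start. The ends of these windows did not match the beginning of a reference transcript, so the starts are uncertain. A paired heat shock element, GAA and TTC in either order with any 2 bases between them, can share GAA with this motif. It was in the windows of Kif22 and Kif5c, neither of which passed, and in 15.1% of all windows.
Kif11 (chr19:37376262-37376381, plus strand): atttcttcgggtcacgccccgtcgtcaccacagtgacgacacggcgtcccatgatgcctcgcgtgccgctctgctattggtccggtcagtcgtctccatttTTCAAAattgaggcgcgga
Kif15 (chr9:122950961-122951080, plus strand): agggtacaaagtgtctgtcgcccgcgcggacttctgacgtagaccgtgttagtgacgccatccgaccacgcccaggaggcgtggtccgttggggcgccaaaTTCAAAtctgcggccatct
Kif2c (chr4:117178773-117178892, minus strand): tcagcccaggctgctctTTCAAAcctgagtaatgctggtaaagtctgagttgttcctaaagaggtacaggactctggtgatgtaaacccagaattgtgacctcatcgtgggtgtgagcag

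Of the 13 cargo transporters tested, 6 were higher in the knockdown, 2 lower and 5 did not pass. Over all tested genes 27.4% were higher and 33.5% lower. Kif21a, a kinesin-4 motor that slows microtubule growth, went from 5.18 and 11.4 CPM to 68.3 and 142 CPM, or 12.7-fold (3.66, SE 0.51; edgeR, adjusted p = 0.00033). Its paralog Kif21b moved the other way, from 46.4 and 59.6 CPM to 12.1 and 21.3 CPM (-1.67, SE 0.38; edgeR, adjusted p = 0.00461). Per kilobase, Kif21a over Kif21b stood at 0.16 and 0.275 in WT but at 8.13 and 9.56 in the knockdown, so the more abundant paralog differed between the groups.

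The conventional kinesin heavy chains, of the kinesin-1 family, all had higher knockdown values. Kif5b, the form found in most cells, rose from 23.2 and 33.7 CPM to 113 and 162 CPM (2.27, SE 0.34; edgeR, adjusted p = 0.0005). Kif5a, known best from neurons, rose from 7.23 and 8.44 CPM to 24.8 and 32.7 CPM (1.88, SE 0.39; edgeR, adjusted p = 0.00257), a call lost under axis-gene scaling (adjusted p = 0.0889). Kif5c had 9.64 and 7.99 CPM in WT and 13.5 and 19.7 CPM in the knockdown and did not pass (0.91, SE 0.42; edgeR, adjusted p = 0.0835), though it did with library totals only (edgeR, adjusted p = 0.0211) and with the replicate number as a block (0.0378).

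In the kinesin-3 family Kif1c, which returns vesicles from Golgi to endoplasmic reticulum, rose from 7.71 and 21.4 CPM to 79.1 and 113 CPM (2.72, SE 0.48; edgeR, adjusted p = 0.00125). Kif1a, a carrier of synaptic vesicle precursors, rose from 3.36 and 4.83 CPM to 18.1 and 33.03 CPM (2.64, SE 0.47; edgeR, adjusted p = 0.00123). Kif13a, which moves endosomal vesicles, rose from 4.11 and 6.46 CPM to 14.9 and 19.3 CPM (1.69, SE 0.45; edgeR, adjusted p = 0.00897), a call lost without knockdown replicate 2 (adjusted p = 0.052) and under axis-gene scaling (0.171). Kif1b (0.14, SE 0.36) and Kif13b (0.11, SE 0.35) overlapped between groups, and Kif16b, an endosomal motor, had 60.2 and 59.1 CPM against 39.2 and 44.7 CPM without passing (-0.51, SE 0.30; edgeR, adjusted p = 0.164). Of the kinesin-14 motors on this side Kifc3, of cell junctions and Golgi, fell from 77.8 and 104 CPM to 35.2 and 40.9 CPM (-1.26, SE 0.31; edgeR, adjusted p = 0.00609), lost without WT replicate 2 (adjusted p = 0.0717), and Kifc2 did not pass (0.07, SE 0.45).

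Several of the transporters that rose were also higher in WT replicate 2 than in WT replicate 1, as summed Sertoli and Leydig markers were, whereas summed myoid markers were lower there (53.4 and 40.8 CPM). Kif1c was 7.71 CPM in WT replicate 1 and 21.4 CPM in WT replicate 2, Kif21a 5.18 and 11.4 CPM, while summed Sertoli markers were 246 and 539 CPM and summed Leydig markers 111 and 747 CPM in those libraries. Over the 14 cargo kinesins the median log2 ratio of WT replicate 2 to replicate 1 was 0.50, against -0.02 for the cilium and flagellum group. Cargo kinesins that did not rise also had positive ratios: Kifc2 (0.77), Kif1b (0.56), Kif13b (0.53), Kifc3 (0.42) and Kif21b (0.36). Those of Kif16b (-0.03), Kif5c (-0.26) and the untested Kif28 (-0.31) were negative. The split was thus not particular to the transporters that rose. Kif5a did not share this split to that degree, at 7.23 and 8.44 CPM. The part of somatic cells in these rises was not tested. Without 1 of the libraries 5 or 6 cargo kinesins rose (edgeR), and 4 did under axis-gene scaling.

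The remaining members were few or weak. Kif26a, a signalling protein whose motor part lacks ATPase activity, rose from 0.625 and 2.33 CPM to 27.3 and 39.2 CPM, or 22.6-fold, the largest rise of the family (4.50, SE 0.64; edgeR, adjusted p = 0.00037). Its paralog Kif26b had between 0.212 and 1.88 CPM in the 4 libraries and did not pass (edgeR, adjusted p = 0.351). The pseudogene Kifc5c-ps had 72 reads over the WT group and 5 over the knockdown group (-4.22, SE 0.98; edgeR, adjusted p = 0.00482), a call lost without WT replicate 1 (adjusted p = 0.0575). Kif28 had 9 and 14 reads in the groups and was not tested. Kif12 had no read in any library, which allows a level of up to 0.0481 CPM in WT and 0.0339 CPM in the knockdown, taking 3 counts per group as the limit and counting error only. Of the 42 tested members 14 had both knockdown libraries above both WT libraries and 21 had both below, where 39.0% and 43.7% of all tested genes did.

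The make-up of kinesin mRNA changed with these shifts. Kinesin reads were 0.297% of all counts in each WT library and 0.188% and 0.238% in the knockdown libraries. On a scale of CPM per kilobase of the longest GENCODE transcript, where levels of different genes can be compared, Kif9 was highest in WT at a mean of 158, followed by Kif3b at 90.0, Kif2b at 78.3, Kif2a at 64.4 and Kif3a at 61.1. In the knockdown Kif3a was highest at 33.1, followed by Kif5b at 22.8, Kif2c at 22.4 and Kif3b at 21.7, whose values overlapped across the 2 libraries, and Kif9 was at 11.5. Kif9 alone made up 18.4% and 19.2% of the summed per-kilobase level in WT and 3.38% and 2.70% in the knockdown. The cilium and flagellum group took 50.1% and 52.9% in WT and 26.2% and 25.8% in the knockdown, and the cargo group 7.12% and 10.2% in WT and 22.9% and 32.6% in the knockdown. The spindle kinesins as a whole took 42.7% and 36.8% in WT and 49.8% and 40.1% in the knockdown, ranges that overlap. These shares do not depend on the scaling of the libraries and leave out Kif19b, for which no length was found.

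**Figure D3:**
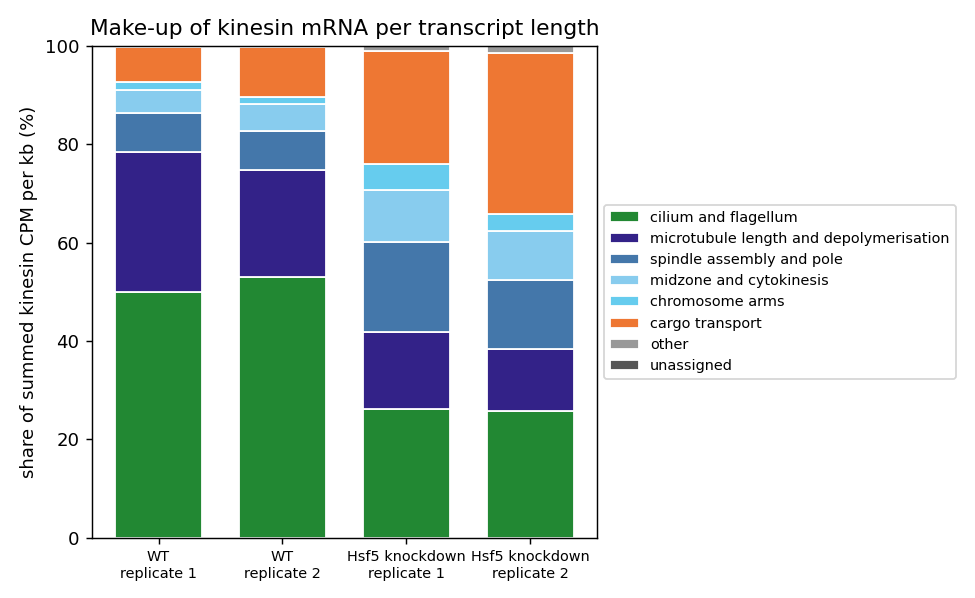
Share of the summed kinesin level (CPM per kilobase of transcript, in percent) that each role took in each of the 4 libraries, as stacked bars. The cilium and flagellum part is 50.1% and 52.9% in WT and 26.2% and 25.8% in the knockdown, and the cargo part is larger in both knockdown libraries.

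Genes that work with kinesins were counted in 3 lists. The lists were chosen with earlier results of these data known, and differences between them were not tested. Of 19 partners of the ciliary and flagellar motors 17 fell and 0 rose (edgeR, 0 also at an unadjusted p below 0.05, and 0 with DESeq2), with a median of -1.80, where 33.5% of all genes fell. Spag16, of the central pair, had 228 and 183 CPM in WT and 15.3 and 12.01 CPM in the knockdown (-3.91, SE 0.33; edgeR, adjusted p = 2.5e-05). Fhl5, the cargo of Kif17 named above, went from 52.6 and 25.7 CPM to 0.0846 and 0.242 CPM (-7.90, SE 0.68; edgeR, adjusted p = 2.7e-05). Spef2, also of the central pair, had a log2 fold change of -3.07 (SE 0.31). Chosen after their values were seen, Ift20 (-0.30, SE 0.31) and Ift88 (-0.08, SE 0.29), core intraflagellar transport subunits, were the 2 that did not pass, and Hydin, a central pair protein, had 259 and 510.4 CPM in WT and 14.4 and 33.8 CPM in the knockdown (-4.00, SE 0.51; edgeR, adjusted p = 0.00023).

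Of 12 cargo adaptors and light chains 3 rose, 2 fell and 7 did not pass, with a median of 0.25. With 27.4% of all tested genes higher and 33.5% lower, this is near the background. Klc1, a light chain that links kinesin-1 to cargo, rose from 11.6 and 16.4 CPM to 57.4 and 48.4 CPM (1.92, SE 0.35; edgeR, adjusted p = 0.00147), in the direction of Kif5a and Kif5b. Klc2, Klc3 and Klc4 did not pass, with log2 fold changes of 0.06 (SE 0.29), -0.22 (SE 0.55) and 0.43 (SE 0.31). The scaffold gene Mapk8ip2 fell from 207 and 219 CPM to 29.3 and 26.9 CPM (-2.93, SE 0.30; edgeR, adjusted p = 6.5e-05), and Hook1, of the manchette, fell by 1.15 (SE 0.28) on the log2 scale. Without WT replicate 1 the adaptor list had 1 gene higher and 1 lower.

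Of 18 spindle partners 7 fell, 1 rose and 10 did not pass, with a median of -0.42. The share that fell is near the 33.5% of all tested genes. Without WT replicate 1, 4 fell, and without knockdown replicate 1, 2 rose. Aurkc, the germ cell kinase of the chromosomal passenger complex, went from 40.2 and 39.7 CPM to 2.56 and 1.31 CPM (-4.36, SE 0.47; edgeR, adjusted p = 9.0e-05). Aurka, a spindle pole kinase, had 293 and 236 CPM in WT against 85.2 and 53.3 CPM (-1.93, SE 0.33; edgeR, adjusted p = 0.00108). Plk1, a mitotic and meiotic kinase, fell from 111 and 108 CPM to 37.8 and 33.1 CPM (-1.63, SE 0.29; edgeR, adjusted p = 0.00116). Cenpe, the kinetochore kinesin whose symbol falls outside the naming rule, had 136 and 121 CPM in WT and 88.4 and 87.1 CPM in the knockdown and did not pass (-0.55, SE 0.28; edgeR, adjusted p = 0.112). The riser was Mki67, a chromosome surface protein of cycling cells, from 58.7 and 65.4 CPM to 137 and 193 CPM (1.41, SE 0.30; edgeR, adjusted p = 0.0032), chosen after its value was seen.

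**Figure D4:**
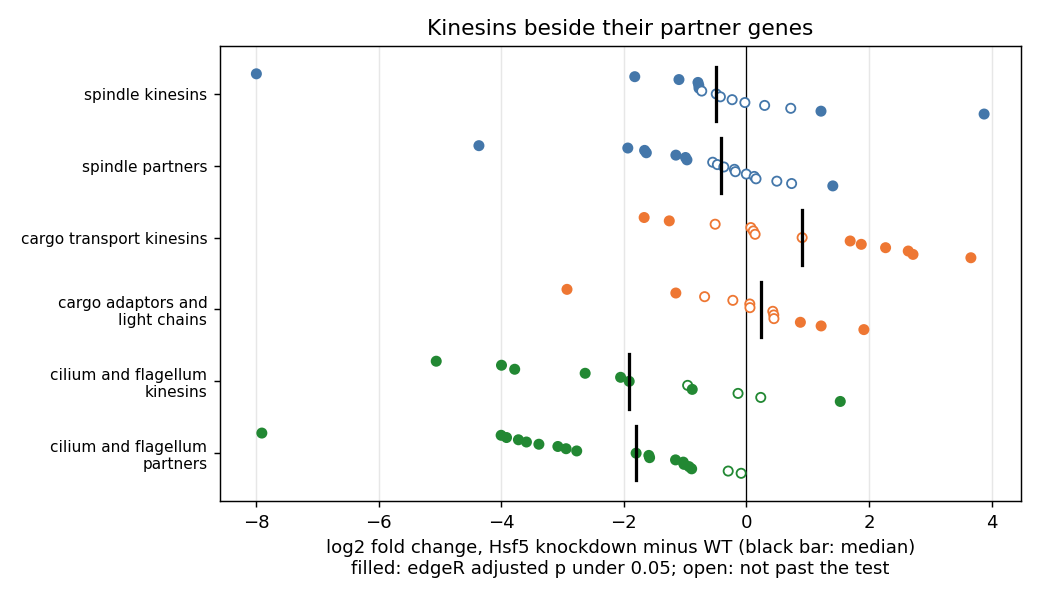
Log2 fold change, knockdown minus WT, of the tested kinesins of each side beside the partner genes of the same process, 1 point per gene (filled for an edgeR adjusted p below 0.05) and a black bar at each median. Kinesins and partners of cilia and flagella have medians of -1.91 and -1.80, spindle kinesins and partners -0.49 and -0.42, and cargo kinesins and adaptors 0.91 and 0.25.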

How the data were processed

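The deposited table holds raw read counts for 50763 gene symbols in the 4 libraries. Trim Galore 0.6.10, HISAT2 2.2.1, featureCounts 1.5.3, DESeq2 1.46.0 and the build mm39 are named per the submitters' processing notes. No source used here gives the annotation, the strand setting or how multiply matching reads were treated. Counts of near copies and of the 16 kinesins with exon overlaps (13 of them antisense) are therefore less certain.

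The main test was the quasi-likelihood F test of edgeR 4.0.16, run in R 4.3.3 on the 23594 genes that filterByExpr kept. TMM factors were 0.854 and 0.865 for WT and 1.11 and 1.22 for the knockdown. P-values were adjusted by Benjamini-Hochberg over those genes, with a threshold of 0.05. The common biological coefficient of variation was 0.356. Each SE was approximated from the F statistic, by dividing the fold change (log2) by its root. Log2 ratios between replicates add 0.5 CPM.

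The members, roles and lists were chosen with earlier results of these data known. Each kinesin was accounted for, with full values first for members past 0.05 whose mean reached 5 CPM, up to 6 per role by smallest p, then up to 2 others per role by highest mean. Partners were named by smallest p, up to 3 per list, and others after their values were seen. Lists are described by counts and medians, with no list test. Of the other marker lists, 3 of 6 myoid genes were higher and 1 lower (Actg2), and 6 of 8 leptotene and zygotene genes were higher and 1 lower (Spo11). Higher, with 0 lower, were 2 of 6 endothelial, 6 of 7 macrophage, 3 of 5 red blood cell and 2 of 6 cycling genes (edgeR, 0 lower also at an unadjusted p below 0.05). Lengths, for 41 of the 42 tested kinesins, are those of the longest GENCODE M21 transcript. Chromosomes and promoters come from RefSeq on GRCm38, whereas the counts were made on mm39.

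Alternatives were DESeq2 size factors, library totals, axis-gene scaling, no filter, a filter at a mean of 1 CPM, Wald tests in DESeq2 1.42.0, glmTreat against 1.5-fold, a replicate block, each library left out in turn, and lists without members also known outside their role.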

Additional observations from a re-analysis of the deposited data

How the results depend on the processing

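Of the 42 tested kinesins, 28 stayed on their side of the threshold in each of the 12 alternatives that tested them (Kif26b and Kifc5c-ps were tested in 11). These were 15 of the 26 called and 13 that did not pass, of which 9 took both signs. None of the 26 called kinesins changed direction in any alternative run. The family's median log2 fold change of -0.46 was -0.51 with DESeq2 size factors and with the DESeq2 Wald test, -0.38 with the filter at 1 CPM, -0.39 without a filter, -0.013 with library totals only and -0.97 under axis-gene scaling. That scaling left 6 kinesins higher, 4 of them transporters or flagellar and 1 on the spindle, 0 cargo adaptors and 0 spindle partners higher (edgeR; the cause was not tested), and 3369 of all genes higher. Its medians were -1.01 for spindle kinesins, -0.53 for transport and flagellar kinesins and -0.67 for all genes, against -0.048, 0.41 and 0.31 with library totals only. Library totals only gave 2 spindle kinesins lower, 5 adaptors higher, and 3 spindle partners higher and 4 lower. The spindle kinesins lower numbered 3 without the filter and against 1.5-fold, where 4 spindle partners were lower. The median of all genes was -0.027 with the filter at 1 CPM and -0.22 without the filter. Without members known outside their role, 1 spindle kinesin rose and the spindle median was -0.61.

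Leaving out each library gave 10 to 13 kinesins lower with medians from -0.59 to -0.21, 1 or 2 spindle kinesins higher and 2 or 3 lower, a transport and flagellar median from -0.38 to 0.24, 1 to 4 adaptors higher and 1 to 3 lower, 1 or 2 spindle partners higher and 4 to 6 lower, and a median of all genes from -0.27 to 0.049. The fewest lower kinesins, 10, came without WT replicate 1. Deviations of same-numbered libraries from their group means correlated at 0.32 over genes, which with 2 numbers does not establish pairing. With the replicate block 12 kinesins were higher and 17 lower, and 2 spindle partners higher. A lone library left in a group is assumed to vary like the other group. At this depth Kif12 and Kif28 gave no comparison.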
